A study of Mus musculus with 36 samples.

Results

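The cardiac sarcomere genes considered here are the 10 genes whose mouse (MGI) symbol is Ttn, Myl4, Myl7, Tnnt2, Tnni1, Tnnc1, Myh6, Myh7, Actc1 or Actn2. Each symbol occurred once among the 54281 genes of every table, and all 10 passed the filter on low counts that left 21601 genes for testing. They were followed in 36 RNA-seq libraries from mouse embryonic stem cells (ESCs) that were carried from serum culture (day 0) into N2B27 medium, with bFGF until day 3, towards anterior neural progenitors at day 5. Tet1, the gene that was altered, encodes a dioxygenase that oxidises 5-methylcytosine in DNA.

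The KO libraries came from 2 lines, KO1 and KO15, in which Tet1 carried the tm1Koh knockout allele, and the WT libraries from 2 lines, WT7 and WT34. All 4 were male (B6 × 129S6)F1 lines derived from blastocysts, in KO and WT littermate pairs. KO and WT each had 2 libraries on days 0, 1, 2 and 4, 4 libraries on day 3 and 3 libraries on day 5. The MUT libraries came from CM59 and CM69, 2 clones of WT7 in which Cas9 editing had changed the catalytic site of Tet1, with 1 library per clone on day 3 and on day 5. They were compared with WT70, a single wild-type line with 1 library per day, and the labels do not say whether WT70 was a clone from the same editing. Experiment 1 held the KO and WT libraries of day 0 and 2 of each on days 3 and 5. Experiment 2 was a time course of KO and WT on days 1 to 4, in which day 5 was represented by KO1 and WT7 alone. Experiment 3 held MUT and WT70. Replicates were therefore lines, or repeats of a line in another experiment, and each p-value measures the spread between such libraries.

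Total counts per library lay between 10139521 and 26307363, with a median of 14581451. Tet1 itself was at 28.9 to 83.1 CPM (counts per 1000000 counts of the library) in the 15 KO libraries, against 108 to 1432 CPM in the 15 WT libraries, so that every KO library lay below every WT library. MUT libraries had 158 to 320 CPM, against 170 to 254 CPM in WT70. Levels below are CPM after scaling by trimmed mean of M values (TMM), which compares 1 gene between libraries, and TPM (transcripts per 1000000 transcripts, which allows for length) where genes are compared with each other. Differences are log2 fold changes with their standard error (SE) from edgeR's quasi-likelihood test across all 21601 genes, and a gene is said to rise or fall where its Benjamini-Hochberg adjusted p was under 0.05 and its log2 fold change beyond 1.

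The sarcomere is the contractile unit of striated muscle. Myosin heavy chains form the thick filament and carry light chains on their necks, cardiac actin forms the thin filament and carries the troponin complex that answers to calcium, titin runs as an elastic filament from the Z-disc to the M-line, and alpha-actinin cross-links actin at the Z-disc. Several of these proteins exist in forms that differ between atrium and ventricle or between embryo and adult. In the mouse, Myl7 and Myl4 encode the regulatory and essential light chains typical of atrial muscle, Myl2 and Myl3 those of ventricular muscle. Myh7 is the heavy chain that prevails in the embryonic ventricle and Myh6 the one of the atrium and of the adult heart, and Tnni1 encodes the slow troponin I that the fetal heart uses before Tnni3.

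The genes lie on 5 chromosomes of the mm10 build. Ttn (2:76703980-76982547) and Actc1 (2:114047282-114053548) are on the minus strand of chromosome 2, Tnni1 (1:135779434-135810989) and Tnnt2 (1:135836354-135852260) lie near each other on the plus strand of chromosome 1, and Myh6 (14:54941921-54966927) and Myh7 (14:54970684-54994626) are neighbours on the minus strand of chromosome 14, where Tnnc1 (14:31208312-31211729) is on the plus strand. On chromosome 11 Myl4 (11:104550663-104595753) is on the plus strand and Myl7 (11:5896637-5898782) on the minus strand, and Actn2 (13:12269426-12340760) is on the minus strand of chromosome 13.

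To show what lies upstream of these genes, the 250 bases before each RefSeq start on GRCm38.p6 were searched on both strands for 6 motifs linked with muscle or cardiac promoters. The 10 genes had 13 annotated starts, and 32851 such windows of all genes gave the comparison. The E-box CANNTG occurred in the windows of 8 of the 10 genes, all but Myl4 and Actc1, and in 66.2% of all windows. The 10-base CArG box bound by serum response factor occurred upstream of Myl7 and Actc1 and in 1.47% of all windows, and the 10-base MEF2 site occurred upstream of Ttn and in 0.508% of all windows. The GATA motif AGATAA was found for Tnnt2 (9.99% of all windows), TNAAGTG, an NKX2-5 motif, for Myh7 (10.1%) and TATAAA for none of the 10 (12.4%). A match describes these letters only. The windows of 4 genes that held a match other than an E-box and overlapped no annotated exon are given 5′ to 3′ on the gene's own strand, from RefSeq, with the match in capitals: the MEF2 site 166 to 157 bases upstream of Ttn (chr2:76982548-76982797, minus strand), the CArG box 61 to 52 bases upstream of Myl7 (chr11:5898783-5899032, minus strand), AGATAA 166 to 161 bases upstream of the first of 2 starts of Tnnt2 (chr1:135836084-135836333, plus strand) and TNAAGTG 177 to 171 bases upstream of the first of 2 starts of Myh7 (chr14:54994627-54994876, minus strand). The matches of Tnnt2 and Myh7 are on the other strand and so read TTATCT and CACTTTA. No match overlapped another.
Ttn: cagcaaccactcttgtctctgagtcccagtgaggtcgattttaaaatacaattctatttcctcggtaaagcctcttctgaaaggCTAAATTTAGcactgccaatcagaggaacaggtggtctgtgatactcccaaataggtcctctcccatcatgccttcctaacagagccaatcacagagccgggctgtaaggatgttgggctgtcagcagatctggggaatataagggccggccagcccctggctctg
Myl7: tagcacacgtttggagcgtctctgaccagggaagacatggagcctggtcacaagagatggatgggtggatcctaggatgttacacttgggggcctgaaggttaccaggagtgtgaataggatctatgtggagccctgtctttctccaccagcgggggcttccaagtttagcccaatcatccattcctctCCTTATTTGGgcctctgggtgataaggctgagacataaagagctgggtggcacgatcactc
Tnnt2: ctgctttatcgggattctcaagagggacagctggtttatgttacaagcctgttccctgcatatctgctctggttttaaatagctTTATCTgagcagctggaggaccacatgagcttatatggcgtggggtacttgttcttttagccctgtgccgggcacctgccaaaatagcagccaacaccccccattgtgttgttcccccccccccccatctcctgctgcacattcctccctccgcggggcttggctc
Myh7: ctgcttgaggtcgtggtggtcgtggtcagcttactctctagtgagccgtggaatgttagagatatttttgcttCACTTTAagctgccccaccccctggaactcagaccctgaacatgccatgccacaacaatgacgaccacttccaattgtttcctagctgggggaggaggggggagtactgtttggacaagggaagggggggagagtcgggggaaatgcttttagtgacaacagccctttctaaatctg

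On day 5, 9 of the 10 genes rose in KO against WT and the remaining gene, Actn2, passed the adjusted p but not the fold. Across all genes tested, 5.99% rose and 5.73% fell in the same comparison. The median log2 fold change of the 10 was 3.49, against -0.01 over all genes. In bulk RNA, more or fewer cells that express a gene and more or less RNA per cell cannot be told apart. The summed TPM of the 10 genes was 110 to 200 in the KO libraries of day 5, against 11.7 to 20.97 in the WT libraries, and 18.1 to 19.7 in MUT, against 9.70 in WT70.

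**Figure D1:**
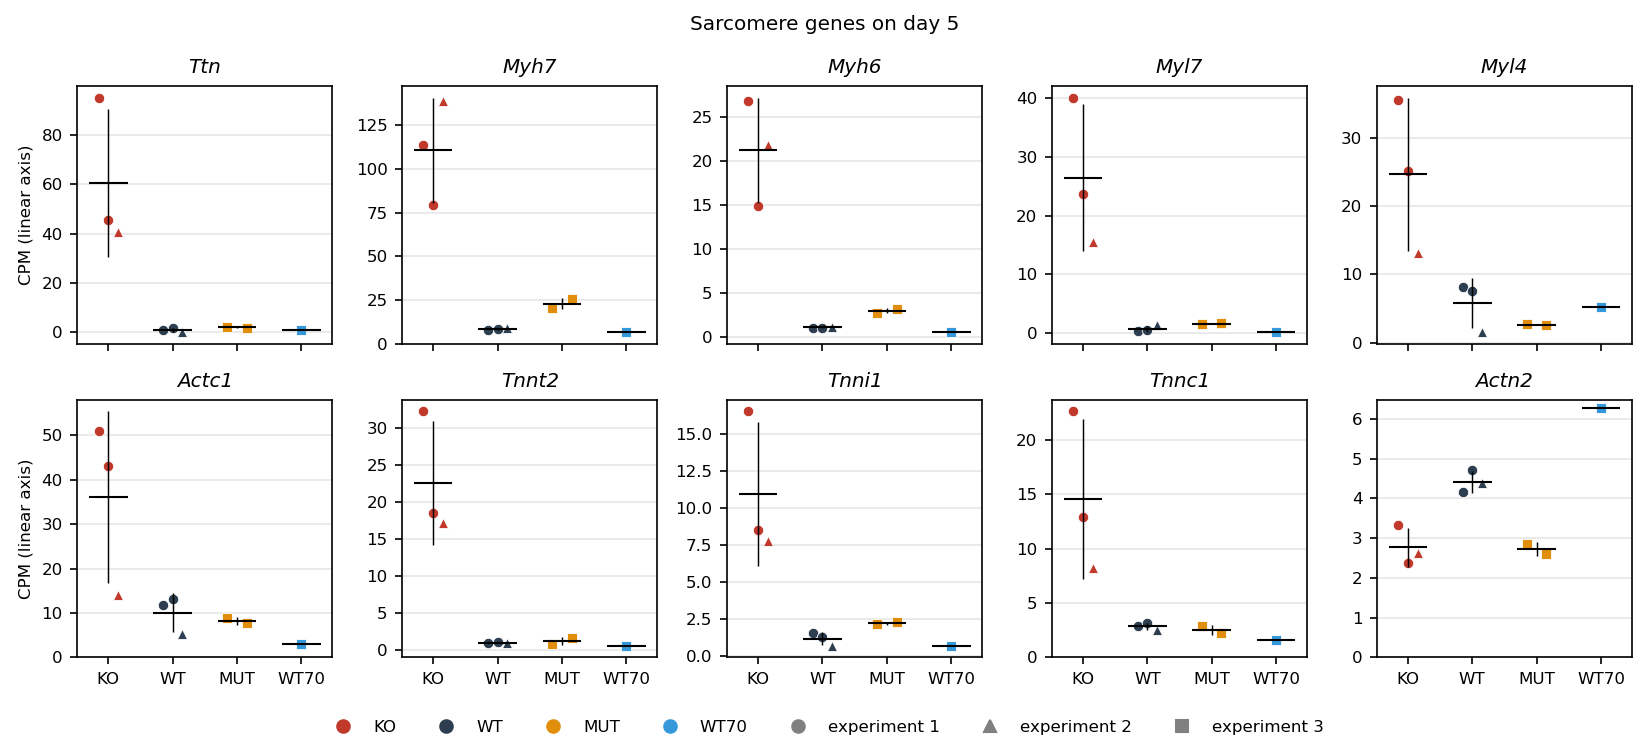
Levels of the 10 genes on day 5 in CPM (vertical axes, linear, each from 0) in KO, WT, MUT and WT70 libraries. Each point is 1 library, the bar is the group mean and the line its SD; for 9 genes, all but Actn2, the KO points stand above all others, while Actn2 is lower in KO (2.37 to 3.32 CPM) than in WT (4.16 to 4.71 CPM).

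Titin had the largest log2 fold change of the 10 in the fit of all libraries. Ttn was at 95.2, 45.7 and 40.8 CPM in the KO libraries of day 5 (KO1 and KO15 of experiment 1, then KO1 of experiment 2), against 0.757, 1.85 and 0.202 CPM in the WT libraries in the matching order of WT7, WT34 and WT7. Every KO library was above every WT library, and the first KO library stood above the other two. The means were 60.6 ± 30.1 CPM in KO and 0.938 ± 0.841 CPM in WT (SD, n = 3 each), a log2 fold change of 6.03 (SE 0.34, edgeR adjusted p = 1.49e-12). Without the WT34 library, which had the highest WT level, it was 6.92. Myl7 had the larger value in experiment 1 alone, without the WT7 library of experiment 2 (where it was 6.22) and by limma on TPM.

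Both heavy-chain genes of the thick filament rose. Myh7 was at 114, 79.4 and 139 CPM in KO, against 8.02, 8.42 and 8.90 CPM in WT, and here the KO1 library of experiment 2 was the highest. Its log2 fold change was 3.70 (SE 0.30, edgeR adjusted p = 6.21e-10). Myh6 had 26.8, 14.9 and 21.8 CPM in KO, against 1.06, 1.00 and 1.15 CPM in WT, with an SD of 0.0717 CPM in WT, and its log2 fold change was 4.29 (SE 0.31, edgeR adjusted p = 6.82e-11). The 2 heavy-chain genes share sequence, and their deposited counts are fractional, so that reads were divided between them by estimation.

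Both atrial light-chain genes rose. Myl7 was at 40.1, 23.8 and 15.6 CPM in KO, against 0.303, 0.464 and 1.28 CPM in WT, with a log2 fold change of 5.21 (SE 0.46, edgeR adjusted p = 2.40e-09). The order of the libraries was turned round between the genotypes, since the libraries of experiment 2 were the lowest in KO and the highest in WT. Myl4 had 35.6, 25.1 and 13.1 CPM in KO, against 8.18, 7.57 and 1.55 CPM in WT. For this gene the experiment 2 library was the lowest in both genotypes, and the log2 fold change was 2.21 (SE 0.40, edgeR adjusted p = 0.000119).

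The 3 troponin genes rose as well. Tnnt2, the cardiac troponin T that anchors the troponin complex on tropomyosin, was at 32.3, 18.5 and 17.1 CPM in KO, against 0.908, 1.08 and 0.944 CPM in WT, a log2 fold change of 4.54 (SE 0.56, edgeR adjusted p = 5.30e-07). Tnni1, which encodes the inhibitory subunit, was at 16.5, 8.53 and 7.78 CPM in KO, against 1.51, 1.24 and 0.674 CPM in WT, and rose by 3.27 on the log2 scale (SE 0.51, edgeR adjusted p = 1.86e-05). Tnnc1, the calcium-binding subunit of slow and cardiac muscle, was at 22.7, 12.9 and 8.24 CPM in KO, against 2.88, 3.17 and 2.50 CPM in WT, and rose by 2.29 on the log2 scale (SE 0.33, edgeR adjusted p = 5.40e-06). For all 3 troponin genes the KO1 library of experiment 1 was the highest and that of experiment 2 the lowest.

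Actc1, cardiac alpha-actin, had the smallest rise of the 9. It was at 50.9, 43.1 and 14.1 CPM in KO, against 11.9, 13.2 and 5.19 CPM in WT, so that the KO library of experiment 2 (14.1) barely cleared the highest WT library of experiment 1 (13.2). Within each experiment the KO libraries were well above the WT ones, and the log2 fold change was 1.80 (SE 0.30, edgeR adjusted p = 5.54e-05). Actn2, the alpha-actinin of the sarcomeric Z-disc, was the one gene lower in KO. It was at 3.32, 2.37 and 2.62 CPM in KO, against 4.16, 4.71 and 4.38 CPM in WT, a log2 fold change of -0.66 (SE 0.23, edgeR adjusted p = 0.0267).

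Of the 3 day 5 pairs, 2 came from experiment 1 and 1 from experiment 2. In experiment 1 alone (2 KO and 2 WT libraries), the same 9 genes passed, with log2 fold changes of 5.77 for Ttn, 6.37 for Myl7, 4.68 for Tnnt2, 4.34 for Myh6, 3.57 for Myh7, 3.19 for Tnni1, 2.57 for Tnnc1, 1.96 for Myl4 and 1.92 for Actc1 (largest edgeR adjusted p 0.000582), and -0.62 for Actn2 (edgeR adjusted p = 0.126). In a fit of experiment 2 alone, where the spread of the single day 5 library of each genotype was taken from days 1 to 4, 7 genes passed. These were Ttn (7.60), Myh6 (4.24), Tnnt2 (4.17), Myh7 (3.97), Myl7 (3.59), Tnni1 (3.51) and Myl4 (3.07, edgeR adjusted p = 0.0475, the largest of the 7), whereas Tnnc1 (1.72, edgeR adjusted p = 0.122), Actc1 (1.44, edgeR adjusted p = 0.0566) and Actn2 (-0.74, edgeR adjusted p = 0.267) did not pass. The larger log2 fold change was in experiment 1 for Myl7 and in experiment 2 for Ttn and Myl4, a difference between experiments that was not tested. In the fit of all libraries, leaving out any 1 of the 6 kept all 9 calls.

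**Figure D2:**
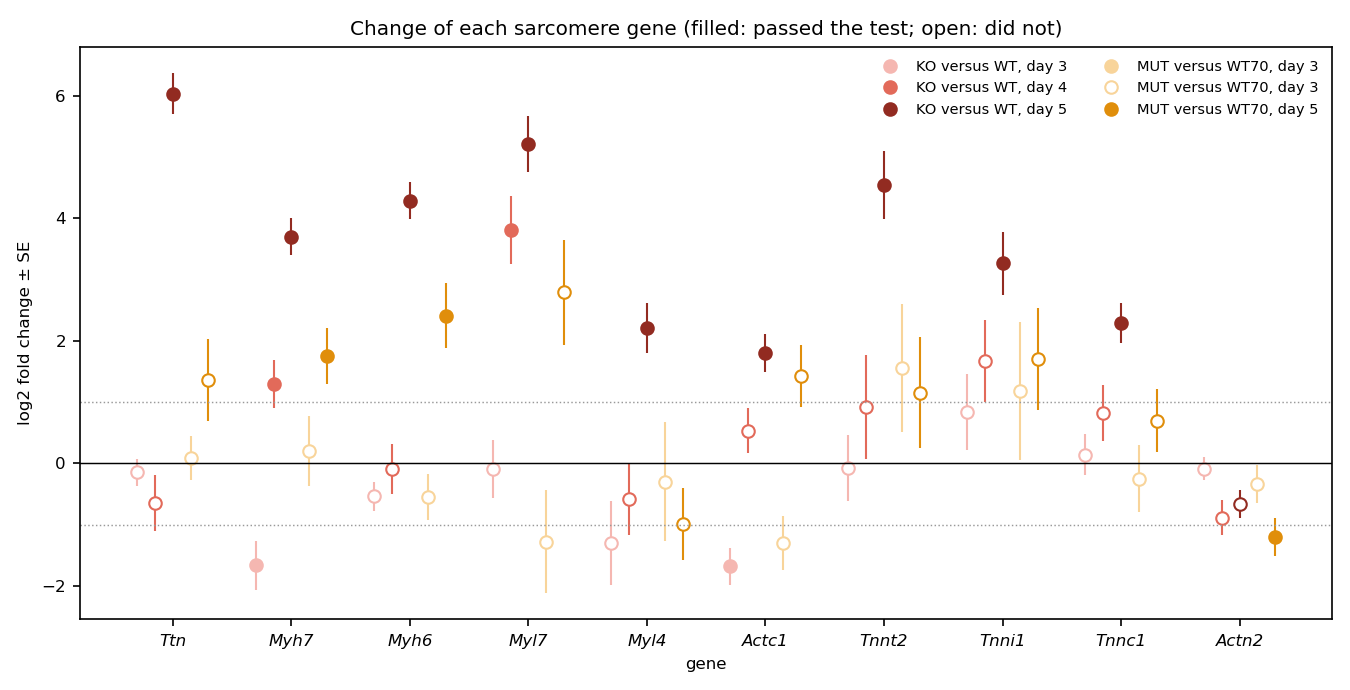
Log2 fold changes with their standard errors (vertical axis, edgeR's quasi-likelihood fit) of the 10 genes (horizontal axis) for KO against WT on days 3, 4 and 5 and MUT against WT70 on days 3 and 5. Filled points passed the thresholds (adjusted p 0.05, and a log2 fold change outside the dotted lines at 1 and -1) and open points did not. On day 5 9 of 10 genes are filled above the dotted lines for KO, and 2 above and 1 below them for MUT.

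Compared per length, the order of the genes was different. Mean TPM in the KO libraries of day 5 was 36.3 for Myl7, 26.9 for Myh7, 24.3 for Myl4, 15.8 for Tnnc1, 13.8 for Actc1, 12.1 for Tnnt2, 8.42 for Tnni1, 5.53 for Myh6, 1.17 for Ttn and 0.685 for Actn2. Neighbours in this order mostly overlapped between libraries. Myl7 spanned 22.7 to 54.7 TPM, Myh7 17.0 to 37.3 TPM, Myl4 12.4 to 35.9 TPM, and Tnnc1, Actc1 and Tnnt2 lay at 9.83 to 24.2, 5.82 to 19.6 and 8.81 to 17.0 TPM. Ttn and Actn2, in contrast, had at most 1.93 and 0.863 TPM in any KO library of day 5.

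On day 4 the same comparison gave 2 genes that rose in KO, Myl7 and Myh7, and 0 that fell (1, Actn2, was lower at an unadjusted p under 0.05 by edgeR, and 0 fell by DESeq2), against 3.4% and 4.28% of all genes that rose and fell. The median log2 fold change of the 10 was 0.68. Myl7 was at 9.03 and 7.37 CPM in the KO libraries (KO1 and KO15), against 0.594 and 0.563 CPM in the WT libraries (WT7 and WT34), a log2 fold change of 3.81 (SE 0.56, edgeR adjusted p = 1.80e-05). Myh7 was at 9.44 and 10.97 CPM in KO, against 3.71 and 4.58 CPM in WT, a log2 fold change of 1.30 (SE 0.39, edgeR adjusted p = 0.0220). The Myl7 call held without any 1 library, but the Myh7 call was lost without any 1 of the 4, at log2 fold changes of 1.15 (without WT7), 1.21 (without KO15), 1.40 (without KO1) and 1.47 (without WT34) and edgeR adjusted p-values of 0.163, 0.111, 0.0550 and 0.0713.

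The other genes did not pass on day 4. Tnni1 was at 2.33 and 2.07 CPM in KO, against 0.371 and 0.986 CPM in WT, with a log2 fold change of 1.68 (edgeR adjusted p = 0.0939). The libraries of the genotypes overlapped for Myl4 and Myh6. Actn2 was at 2.12 and 2.30 CPM in KO, against 4.45 and 3.73 CPM in WT (-0.89, edgeR adjusted p = 0.0322, short of the fold), and Ttn was at 1.91 and 2.07 CPM in KO, against 3.56 and 2.68 CPM in WT (-0.64, edgeR adjusted p = 0.412).

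On day 3, 0 of the 10 rose in KO (0 also at an unadjusted p under 0.05 by edgeR, and 0 by DESeq2) and 2 fell, against 2.09% of all genes that rose and 1.87% that fell. Actc1 was at 2.52, 2.03, 2.82 and 1.52 CPM in the 4 KO libraries, against 8.53, 6.69, 5.93 and 7.09 CPM in the 4 WT libraries, a log2 fold change of -1.68 (SE 0.30, edgeR adjusted p = 0.000224). The fall of Actc1 was present in experiment 1 alone (-1.73) and in experiment 2 alone (-1.62, edgeR adjusted p = 0.0127). Myh7 was at 0.265, 0.655, 1.06 and 0.633 CPM in KO, against 3.399, 1.65, 1.13 and 2.11 CPM in WT, with -1.66 (SE 0.40, edgeR adjusted p = 0.00459). For Myh7 the call rested on experiment 1 (-2.42, edgeR adjusted p = 0.0170), since experiment 2 alone gave -1.003 (edgeR adjusted p = 0.204). Both genes thus lay below WT in KO on day 3 and above WT on day 5.

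**Figure D3:**
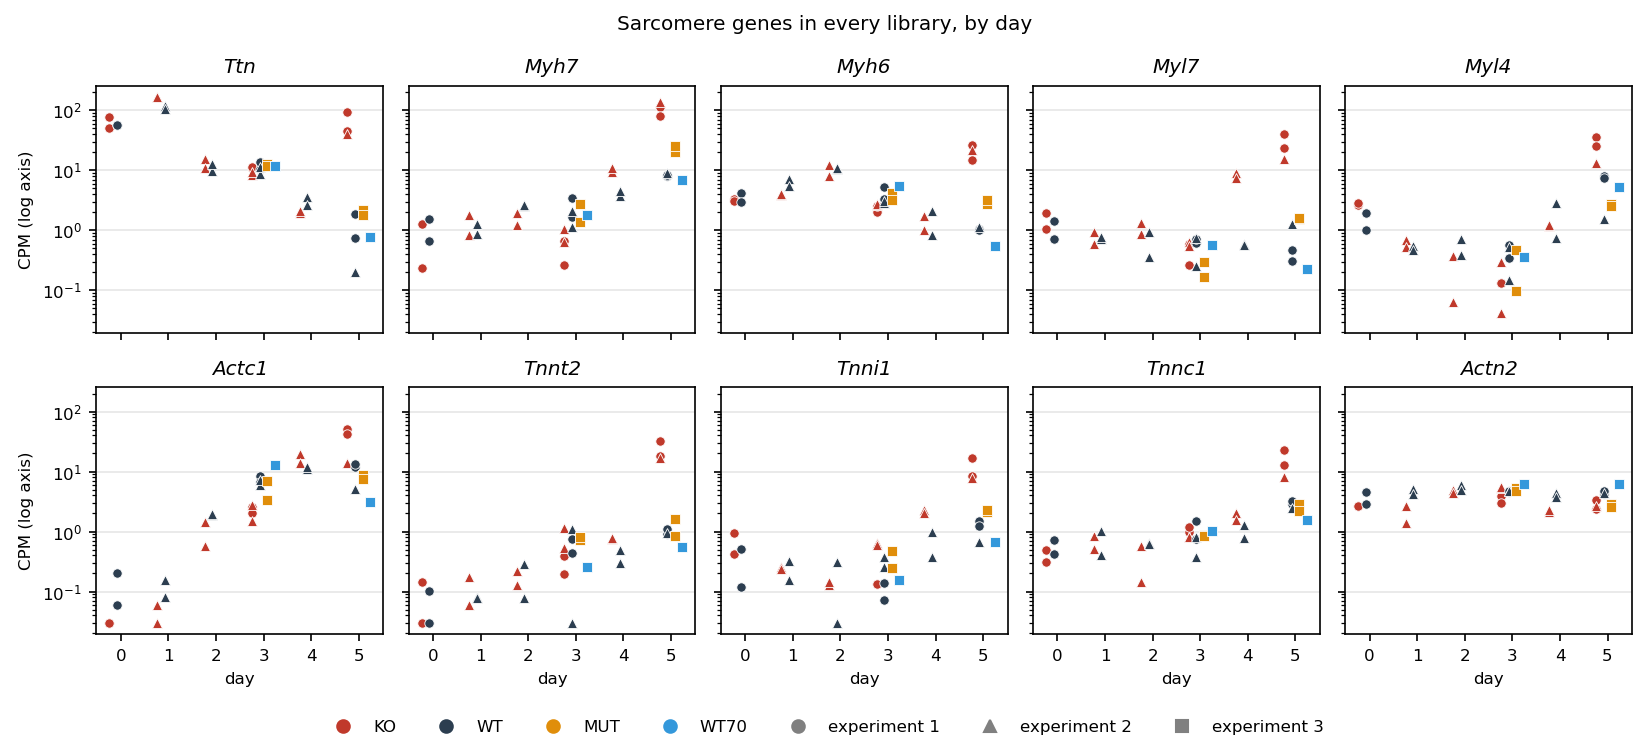
CPM of the 10 genes in all 36 libraries (vertical axes, log scale, with 0 drawn at 0.03) against day of culture. Colours give KO, WT, MUT and WT70 and marker shapes experiments 1, 2 and 3; Ttn peaks on day 1 in both genotypes (165 and 166 CPM in KO, 119 and 105 CPM in WT), and the KO points stand above the WT points for Myl7 on days 4 and 5, and for Ttn, Myh6 and Tnnt2 most clearly on day 5.

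Within the KO cells the genes did not move on 1 schedule. Day 4 was measured in experiment 2 alone, whereas days 3 and 5 also had libraries of experiment 1. The comparisons between days below therefore rest in part on the experiment term of the fit. On day 4 against day 3, 6 of the 10 rose and 2 fell, while 5.22% of all genes rose and 5.93% fell. The risers were Myl7 (log2 fold change 4.00), Myh7 (3.86), Myl4 (3.67, and 4.57 without the KO1 library of experiment 2 on day 3), Actc1 (3.27), Tnni1 (2.39) and Tnnc1 (1.26, lost at 1.04 without the KO1 library of day 4 and at 0.93 without the experiment term), with edgeR adjusted p-values of 5.53e-08 to 0.0174. Ttn (-2.08) and Actn2 (-1.09, short of the fold at -0.96 without the KO15 library of experiment 2 on day 3) fell, and Tnnt2 (0.28) and Myh6 (-0.83) did not pass. On day 5 against day 4, 8 rose and 0 fell by edgeR (0 lower also at an unadjusted p under 0.05, and 0 by DESeq2), while 4.17% of all genes rose and 3.05% fell. These were Tnnt2 (5.02), Ttn (4.56), Myh6 (3.91), Myh7 (3.55), Myl4 (3.39), Tnnc1 (2.51), Tnni1 (2.48) and Myl7 (1.63), with edgeR adjusted p-values of 4.54e-09 to 0.0160. The Tnni1 call was lost without the KO15 library of day 4 (2.41, edgeR adjusted p = 0.0565), and the Myl7 call without the KO1 (1.80) or the KO15 library (1.51, edgeR adjusted p = 0.115) of that day, and with only the compared libraries (0.94, edgeR adjusted p = 0.0734). Without the KO1 library of experiment 2 on day 5, Tnni1 had 3.26 and Myl7 2.41. Actc1 (0.51) and Actn2 (0.46) did not pass.

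Among the KO lines, KO1 in experiment 2 was the one course with days 3, 4 and 5 from the same line and experiment, with 1 library per day. WT7 in experiment 2 was the matching WT course, and the values here are of KO1. Actc1 was at 2.82, 19.4 and 14.1 CPM on these days, so that its day 4 level was 137% of its day 5 level. Myl7 was at 0.646, 9.03 and 15.6 CPM, with 58.0% of its day 5 level on day 4. Tnni1 and Tnnc1 had 29.9% and 24.9% of their day 5 levels on day 4. Myl4 had 8.86%, Myh6 7.83%, Myh7 6.78%, Ttn 4.69% and Tnnt2 4.39%. Actn2 was at 5.34, 2.12 and 2.62 CPM on days 3, 4 and 5, with 80.8% of its day 5 level on day 4. In this line actin and the atrial regulatory light chain had more of their day 5 level on day 4 than the heavy chains, titin and troponin T had.

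Some of the 10 genes had been expressed earlier, in both genotypes. Ttn was at 76.3 and 50.3 CPM in KO ESCs, against 57.4 and 56.7 CPM in WT ESCs, and its highest level in WT was on day 1, with 166 and 165 CPM in KO, against 119 and 105 CPM in WT. On day 2 it was at 15.7 and 10.9 CPM in KO, against 9.70 and 12.8 CPM in WT. Ttn in the WT libraries of day 5 was therefore lower than in any earlier WT library, and it fell by 3.70 on the log2 scale on day 5 against day 3 (edgeR adjusted p = 6.03e-09). Myh6 was highest on day 2 in WT, at 10.7 CPM in both libraries, against 12.1 and 8.07 CPM in KO. Actn2 stayed within 1.37 to 5.57 CPM in all 15 KO libraries, against 2.90 to 6.04 CPM in all 15 WT libraries. Tnnt2, by contrast, was never above 1.14 CPM in KO or in WT before day 5.

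In WT cells, 4 of the 10 genes rose on day 5 against day 3 and 2 fell, against 7.49% and 7.99% of all genes. Those that rose were Myl4 (log2 fold change 3.55), Tnni1 (2.43), Myh7 (2.04) and Tnnc1 (1.62), and Ttn (-3.70) and Myh6 (-1.75) fell (edgeR adjusted p-values 6.03e-09 to 0.00234). Without the WT34 library of day 5 Ttn had -4.53, and without the WT7 library of experiment 2 on day 5 Tnni1 had 3.03. Myl7 (0.33), Tnnt2 (0.68), Actc1 (0.29) and Actn2 (-0.06) did not pass.

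The catalytic-site clones were compared with WT70, and with 1 WT70 library per day that library was taken to vary like the other groups. On day 3 none of the 10 genes passed in either direction, while 0.0463% of all genes rose and 0.102% fell. At an unadjusted p under 0.05 edgeR gave 0 higher and 1 lower (Actc1), and DESeq2 and limma called 0 in either direction. On day 5, 2 genes rose and 1 fell in MUT, while 1.26% of all genes rose and 0.611% fell. The median of the 10 was 1.40, and since WT70 was a single library the absence of overlap for all 10 says little. Myh6 was at 2.75 and 3.22 CPM in MUT (CM59 and CM69), against 0.556 CPM in WT70, a log2 fold change of 2.41 (SE 0.53, edgeR adjusted p = 0.00975). Myh7 was at 20.6 and 25.4 CPM in MUT, against 6.79 CPM in WT70, with 1.76 (SE 0.46, edgeR adjusted p = 0.0319). Actn2 was at 2.86 and 2.60 CPM in MUT, against 6.29 CPM in WT70, with -1.20 (SE 0.31, edgeR adjusted p = 0.0319).

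These 3 calls were close to the threshold. Without CM69, Myh6 had 2.29 (edgeR adjusted p = 0.0501), Myh7 1.60 (edgeR adjusted p = 0.149) and Actn2 -1.14 (edgeR adjusted p = 0.173), and without CM59 Myh7 had 1.91 (edgeR adjusted p = 0.0627) and Actn2 -1.27 (edgeR adjusted p = 0.115). Without the experiment term, Myh7 (edgeR adjusted p = 0.0736) and Actn2 (edgeR adjusted p = 0.0626) missed the threshold at the same log2 fold changes. Set against the 3 WT7 and WT34 libraries of day 5 in place of WT70, which belong to other experiments, Myh6 (1.45, edgeR adjusted p = 0.00302) and Myh7 (1.51, edgeR adjusted p = 0.00127) rose in MUT, Myl4 fell (-1.34, edgeR adjusted p = 0.0397) and Actn2 did not pass (-0.63, edgeR adjusted p = 0.0695). Against that set the values of Actc1 (-0.46) and Tnnc1 (-0.39) also had the opposite sign to those against WT70 (1.43 and 0.70), and none of these 4 values passed.

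The other genes of MUT on day 5 did not pass against WT70. Myl7 was at 1.54 and 1.64 CPM in MUT, against 0.222 CPM in WT70, which rested on 4 counts in the WT70 library (log2 fold change 2.79, SE 0.86, edgeR adjusted p = 0.0766). Ttn was at 2.22 and 1.83 CPM in MUT, against 0.779 CPM in WT70 (1.37, edgeR adjusted p = 0.349). Myl4 was at 2.70 and 2.55 CPM in MUT, against 5.23 CPM in WT70 (-0.99, edgeR adjusted p = 0.481). Tnnt2 was at 0.847 and 1.64 CPM in MUT, against 0.556 CPM in WT70 (log2 fold change 1.15, edgeR adjusted p = 0.646). Tnni1 was at 2.12 and 2.26 CPM in MUT, against 0.667 CPM in WT70 (1.70, edgeR adjusted p = 0.341). Tnnc1 was at 2.86 and 2.21 CPM in MUT, against 1.56 CPM in WT70 (0.70, edgeR adjusted p = 0.615), and Actc1 at 8.84 and 7.65 CPM in MUT, against 3.06 CPM in WT70 (1.43, edgeR adjusted p = 0.144). Within MUT, 5 genes rose on day 5 against day 3 (Myh7 3.47, Myl4 3.14, Myl7 2.76, Tnni1 2.58 and Tnnc1 1.55) and Ttn fell (-2.61), against 8.8% and 8.59% of all genes (edgeR adjusted p-values 1.18e-07 to 0.00505). The Tnni1 call was lost without the CM59 library of day 3 (2.21, edgeR adjusted p = 0.0517), and Myl4 had 2.47 without that library and 4.64 without the CM69 library of day 3.

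Whether the KO and MUT differences of day 5 were of unequal size was tested directly, as the difference between the 2 log2 fold changes. For 3 of the 10 genes it was higher in KO and for 0 lower (0 also at an unadjusted p under 0.05 by edgeR, and 0 by DESeq2), against 1.14% and 2.48% of all genes, with a median of 1.91 over the 10 and -0.05 over all genes. These were Ttn (4.67, SE 1.00, edgeR adjusted p = 0.00422), Myl4 (3.21, SE 0.70, edgeR adjusted p = 0.00542) and Myh7 (1.94, SE 0.51, edgeR adjusted p = 0.0218). For Ttn the difference missed the threshold when only the compared libraries entered the fit (4.70, edgeR adjusted p = 0.0696), and it was 5.55 without the WT34 library of day 5. For Myh7 it was lost without the KO1 library of experiment 1 (1.89), the KO1 library of experiment 2 (1.76) or the CM59 library (1.81, edgeR adjusted p = 0.0938). Tnnt2 (3.39, edgeR adjusted p = 0.0714), Myl7 (2.42, edgeR adjusted p = 0.300), Myh6 (1.88, edgeR adjusted p = 0.102), Tnnc1 (1.59), Tnni1 (1.57), Actn2 (0.54) and Actc1 (0.38) did not pass, with SEs of up to 1.19, so that their effects in KO and MUT are not shown to differ. The pairs behind the test came from separate experiments, and the experiment cannot be told apart from the genotype pair.

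Chamber and stage isoforms were compared as shares of summed TPM within a family. Of Myh6 plus Myh7, Myh7 made up 79.4% to 86.6% in the KO libraries of day 5, against 54.3% to 96.8% in WT, so that KO and WT overlapped by TPM. In MUT it made up 78.7% to 86.7%, below the 96.2% of the single WT70 library. These shares depend on the transcript length that the quantification assigned. In WT on day 5 that length ran from 956 to 6076 bases for Myh6 and from 1459 to 6086 bases for Myh7. Counts summed over the libraries of day 5 were 4543 for Myh7 and 888 for Myh6 in KO, against 347 and 44 in WT. Of Tnni1 plus Tnni3, Tnni1 made up 60.7% to 82.4% in KO on day 5, against 7.16% to 11.4% in WT. It made up 26.3% to 29.9% in KO on day 4, against 1.58% to 8.34% in WT, and 21.4% to 21.6% in MUT on day 5, against 4.34% in WT70. By TPM the slow, fetal form of troponin I thus had the larger share in all 3 KO libraries of day 5 and in no other library of days 4 and 5. The length assigned to Tnni1 was 622 to 650 bases in KO on day 5, against 553 to 1897 bases in WT. Counts summed over the libraries of day 5 were 476 for Tnni1 and 65 for Tnni3 in KO, against 46 and 104 in WT. Tnni3 itself was at 1.40, 0.948 and 2.53 CPM in KO on day 5, against 2.35, 2.32 and 2.90 CPM in WT.

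Of the 3 actin genes Actc1, Acta1 (skeletal) and Acta2 (smooth muscle), Actc1 made up 27.2% to 35.4% in KO on day 5, against 5.78% to 6.31% in WT, and 50.9% to 60.7% in KO on day 4, against 16.4% to 18.3% in WT. In MUT it made up 6.62% to 9.45% on day 5, against 2.99% in WT70. Acta2 itself was on day 5 at 83.3, 70.5 and 35.2 CPM in KO, against 144, 156 and 66.8 CPM in WT. Acta1 was at 5.18, 5.75 and 3.00 CPM in KO, against 29.4, 27.6 and 12.1 CPM in WT, and it fell by 2.27 on the log2 scale.

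Of the essential light chains Myl4 (atrial) and Myl3 (ventricular), Myl4 made up 67.1% to 84.3% of the summed TPM in KO on day 5, against 50.1% to 79.8% in WT, which overlapped, and 33.6% to 35.9% in KO on day 4, against 23.5% to 49.97% in WT. In MUT it was 46.9% to 48.1%, against 56.6% in WT70. Myl3 itself was at 6.05, 5.21 and 5.53 CPM in KO on day 5, against 1.51, 1.85 and 1.08 CPM in WT (log2 fold change 1.92), so that the ventricular and the atrial form both rose. Of the regulatory pair, Myl2 (ventricular) had 5, 5 and 3 counts in KO on day 5, against 0 in each of the 3 WT libraries, while Myl7 (atrial) had 1170 counts summed over KO, against 29 over WT. By summed TPM, which depends on the assigned transcript length, Myl7 made up 86.8% to 91.0% in KO on day 5, against 100% in WT. In MUT it made up 67.8% to 93.9%, against 100% in WT70. On day 4 it made up 97.4% to 97.6% in KO, against 59.2% to 100% in WT. The Myl2 share in KO on day 5 was thus larger by TPM than by count. Nppa, the atrial natriuretic peptide of working atrial muscle, had 1 count in each KO library of day 5, against 0, 1 and 0 in WT, which is too few for a comparison. Beyond the filaments, Tbx5 (2.17) rose among 2 tested genes of the atrial chamber list and Nr2f2 (-0.43) did not pass. Tbx5 was also on the list of cardiac transcription factors. Hey2 (1.83) and Myl3 rose among 3 tested genes of the ventricular chamber list and Irx4 (0.77) did not pass. The 1 tested secreted peptide, Nppb, did not pass (-0.22). Chamber identity of the cells was not tested. Atrial (Myl4, Myl7) and ventricular (Myl3) light chains were thus measured together in the KO libraries of day 5, beside at most 5 counts of Myl2 and 1 of Nppa per library.

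**Figure D4:**
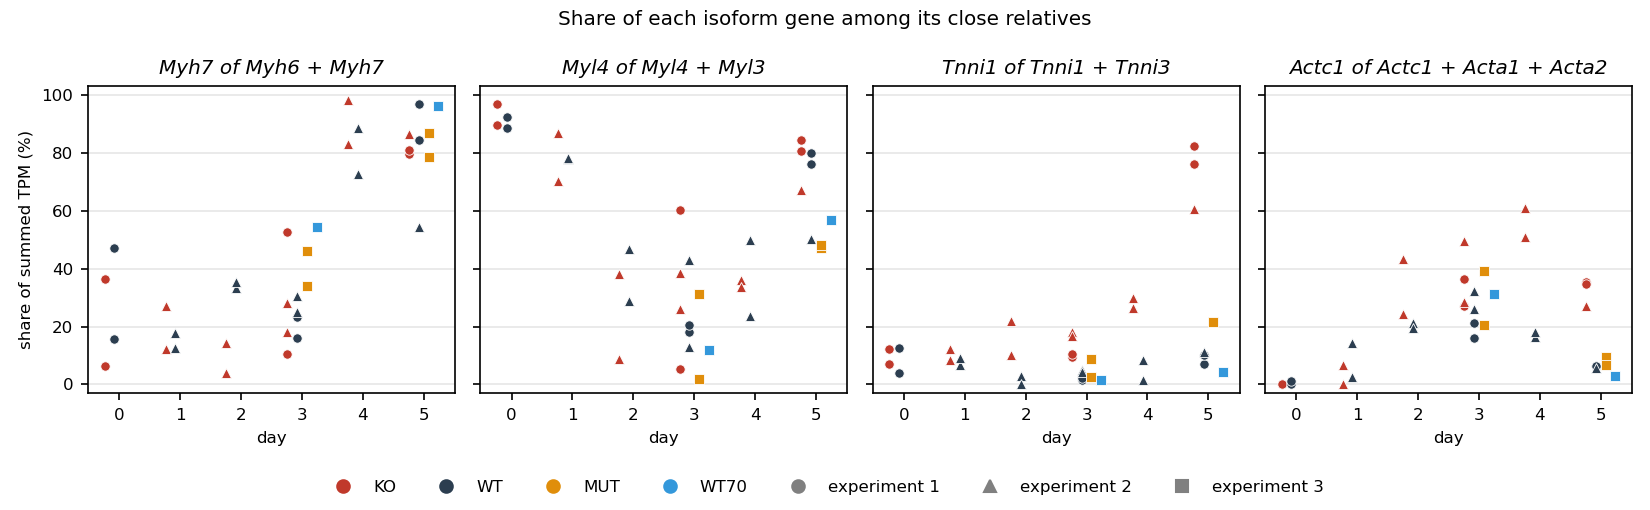
Share of summed TPM (vertical axes, percent) of Myh7 in Myh6 plus Myh7, Myl4 in Myl4 plus Myl3, Tnni1 in Tnni1 plus Tnni3 and Actc1 in Actc1 plus Acta1 plus Acta2, against day. Each point is 1 library. The Tnni1 share reaches 60.7% to 82.4% in KO on day 5 and 7.16% to 11.4% in WT, whereas the Myh7 share by TPM overlaps between KO and WT. Shares depend on the assigned transcript length, which varied between the WT libraries of day 5 for Myh6, Myh7 and Tnni1.

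TPM values carry a further uncertainty, given here for Ttn, Myh6 and Myh7. The ratio of a gene's count to its TPM within a library gives the transcript length that the quantification assigned, once it is scaled on genes with a single transcript. For Ttn this implied length was 79071 to 81104 bases in all KO libraries of days 0 to 3, but 23698 and 16602 bases in the KO libraries of day 5 from experiment 1 and 70285 bases in the one from experiment 2. In MUT on day 5 it was 8170 and 14750 bases, against 85999 bases in WT70, and the WT70 library of day 3 had 10544 bases. Short lengths were not limited to KO and MUT on day 5, since in WT on day 5 it was 61493, 69777 and 16446 bases, on 10, 24 and 3 counts, and in KO on day 4 it was 4996 and 76228 bases, on 28 and 27 counts, against 81893 and 74432 bases in WT. Annotated Ttn transcripts number 25, of 271 to 106824 bases. Ttn counts do not depend on this length, whereas Ttn TPM does, and by TPM the KO library of experiment 2 (0.298 TPM) lay further below those of experiment 1 (1.93 and 1.28 TPM) than by CPM. For Myh6 and Myh7 the implied lengths in KO on day 5 were 1737 to 1944 bases and 1915 to 2179 bases, and in WT on day 5 they were 956 to 6076 bases and 1459 to 6086 bases. The longest annotated transcripts of the 2 genes are of 6113 and 6230 bases. A shorter assigned length gives a higher TPM for the same count.

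**Figure D5:**
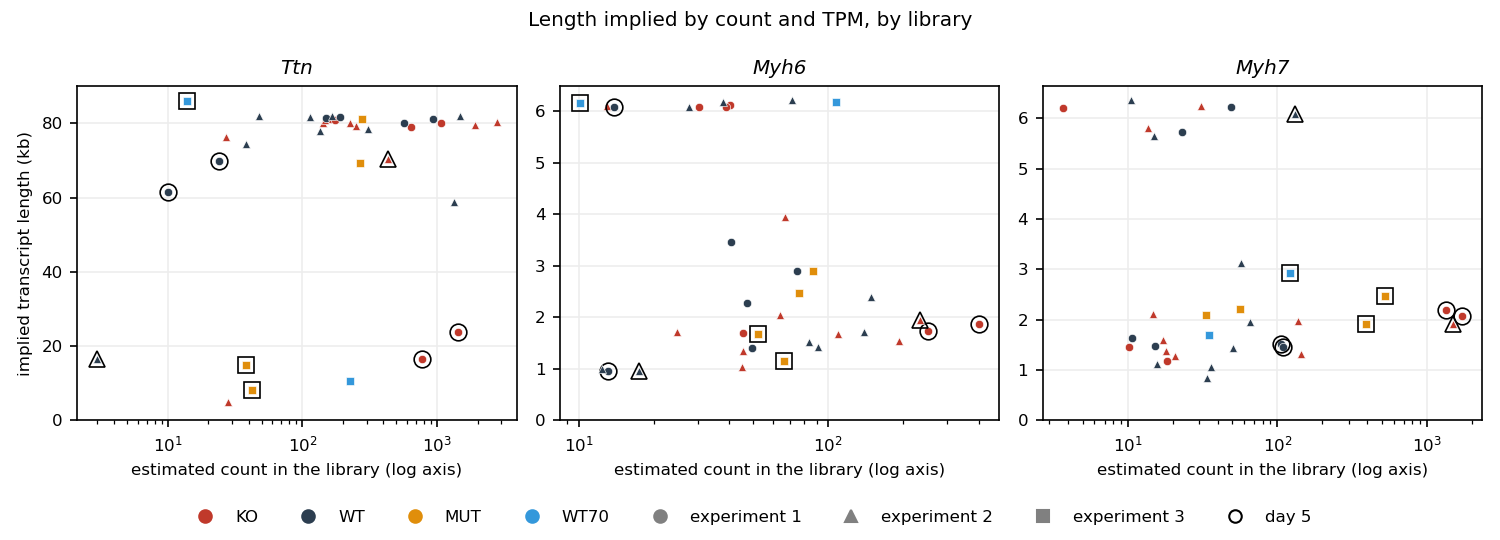
Implied transcript length (vertical axis, kb) against estimated count (horizontal axis, log scale) for Ttn, Myh6 and Myh7, 1 point per library with at least 3 counts and day 5 outlined. Ttn lies at 79071 to 81104 bases in the KO libraries of days 0 to 3 and at 23698 and 16602 bases in 2 KO libraries of day 5, while Myh6 and Myh7 lie at 1737 to 2179 bases in KO on day 5.

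Other genes of the sarcomere were examined in lists beside the 10 that were chosen with earlier results of these data known. On day 5, 6 of 7 tested genes of the remaining thick filament list rose in KO against WT and none fell, with a median log2 fold change of 1.58. They included Myl3 (1.92) and Myom1 (1.39), a protein of the M-line. Mybpc3, cardiac myosin-binding protein C, had 49 counts over the KO libraries, against 2 over the WT libraries, a ratio per depth of 23.6 (exact 95% counting interval 6.19 to 200.1). All 3 assembly factors had positive values and 2 rose, Smyd1 (4.06), a methyltransferase needed for myofibril formation, and Unc45b (2.63), a myosin chaperone. Of 7 other thin filament genes 2 rose and 1 fell (median 0.19), with Tmod1 (3.09), which caps actin's slow-growing end, the highest and Acta1 (-2.27) the lowest. Of 10 Z-disc and costamere genes 3 rose and 1 fell (median 0.67), among them Xirp1 (4.58), Nexn (1.55) and Synpo2l (-1.31). Of 6 calcium handling genes Ryr2 (3.41), the calcium release channel, and Slc8a1 (1.51), the sodium-calcium exchanger, rose. On day 4, edgeR called 0 of the 7 thick filament, 7 thin filament, 10 Z-disc and 3 assembly genes as rising in KO (at an unadjusted p under 0.05, 1 Z-disc gene and 0 of the others), while 1 thick filament, 2 thin filament and 1 Z-disc gene fell.

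Cardiac transcription factors passed on both days. On day 5, 11 of 12 rose in KO (median 5.07), among them Tbx20 (5.25), Isl1 (5.91), Mef2c (4.41) and Myocd (4.90), a coactivator of serum response factor. On day 4, 7 of 12 had risen and none fallen (median 2.37). In MUT on day 5, 3 of 12 rose, Tbx20, Isl1 and Myocd, and none fell. Mef2c was at 49.2, 36.1 and 36.5 CPM in KO on day 5, against 0.606, 0.927 and 4.92 CPM in WT, and at 6.14 and 8.03 CPM in MUT, against 3.06 CPM in WT70, with a tested difference of 3.20 between the KO and MUT effects. On day 4 it was at 0.547 and 0.307 CPM in KO, against 0.668 and 0.352 CPM in WT. The libraries of the genotypes thus overlapped for Mef2c on day 4, as they did for Myh6.

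Markers of other cell types moved in the same comparison. On day 5, 10 of 12 neural progenitor markers fell in KO and 1 rose (median -2.39), among them Wnt1 (-6.74), En1 (-4.64), Sox1 (-4.01) and Sox3 (-2.65), and their summed level was 318 to 521 CPM in KO, against 815 to 882 CPM in WT, and 746 to 805 CPM in MUT, against 1089 CPM in WT70. Of 8 endoderm markers 7 rose and none fell (median 3.79), among them Foxa1 (4.65), Sox17 (3.32) and Foxa2 (2.71), with a summed level of 531 to 654 CPM in KO, against 27.9 to 138 CPM in WT, and 212 to 224 CPM in MUT, against 74.9 CPM in WT70. Of 9 tested blood and endothelial markers 7 rose (median 1.99), with Kdr at 3.86, and a summed level of 80.2 to 109 CPM in KO, against 8.96 to 18.9 CPM in WT. Fibroblast and feeder markers were mixed, with 3 of 8 higher and 2 lower, at 222 to 253 CPM in KO, against 173 to 191 CPM in WT. The part of these other cell types in the level of the 10 genes was not tested.

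The 10 genes are in part shared with other muscle, so markers of skeletal and smooth muscle were looked up. Of 10 tested skeletal muscle markers on day 5, 1 rose in KO (Tnnt3, 2.80) and 2 fell (Actn3, -2.74, and Pax7, -2.51), with a summed level of 15.1 to 16.1 CPM in KO, against 29.7 to 40.7 CPM in WT. Actn3 and Pax7 had 620 and 326 counts over the WT libraries of day 5, against 99 and 37 over the KO libraries. Which cells expressed them was not tested. Myf5, Myf6 and Mymk were at 0 and Myod1 and Myog at 1 count each over the 3 KO libraries of day 5, so the defining skeletal regulators were at or near 0. Of 9 smooth muscle markers none rose and 3 fell, Mylk (-2.45), Cnn1 (-1.74) and Tagln (-1.50), with a summed level of 138 to 238 CPM in KO, against 274 to 521 CPM in WT.

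As a description across libraries, each gene was correlated with the mean of the standardised log2 CPM of the 10 over all 36 libraries, which share depth, day and experiment. Each of the 10 is part of that mean, which raises its own r, so that it is not comparable with the r of genes outside the 10. Pearson's r was 0.91 for Tnnt2, 0.89 for Myh7 and Tnnc1, 0.85 for Tnni1, 0.79 for Myl7, 0.75 for Myl4, 0.63 for Actc1, 0.49 for Myh6, 0.05 for Ttn and -0.20 for Actn2. The members therefore did not form 1 pattern over the whole course, and Ttn, high in ESCs, was closest to Myh6 among the other 9 (r = 0.65) and ran opposite to Actc1 (r = -0.58). Among the genes outside the 10 with the highest r were Xirp1 (0.94), a striated-muscle protein of the intercalated disc, Fgfrl1 (0.93), Ces1d (0.92), Trim55 (0.91), a sarcomere-associated ubiquitin ligase, and Tbx20, Pon1 and Hmbox1 (0.90 each). Trim55 was at 0.889 to 2.06 CPM in KO on day 5, against 0 in all 3 WT libraries, and Fgfrl1 was at 39.6 to 48.1 CPM in KO, against 8.40 to 12.6 CPM in WT. In KO on day 5, Xirp1 was at 1.42 to 3.52 CPM, Ces1d at 1.01 to 1.97 CPM and Pon1 at 0.375 to 1.30 CPM. Elsewhere on days 4 and 5 Xirp1, Ces1d and Pon1 had at most 0.289 CPM, near the floor.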

How the data were processed

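Poly(A) RNA of 36 libraries was sequenced as single 50-base reads from a stranded mRNA kit. The authors trimmed reads with Trim Galore 0.6.4 and quantified transcripts of the GENCODE annotation on mm10 with Salmon 0.14.1, and summarised them per gene with tximport. The deposited tables hold expected counts (73.8% of values whole), which were rounded to whole numbers for edgeR and DESeq2, and TPM as the authors computed them, which depend on the transcript length assigned. Reads shared by related genes, such as Myh6 and Myh7, were divided by estimation. The authors' own tests used DESeq2 1.30.0 in R 4.0.2, and no column of theirs with fold changes was used.

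All 36 libraries entered 1 fit of edgeR 4.0.16 (quasi-likelihood F test, TMM scaling, R 4.3.3) with a mean for each of 16 groups and a term for experiment 2, which left 19 residual degrees of freedom. The filter on low counts (at least 10 in enough libraries and 15 in total) kept 21601 of 54281 genes, and Benjamini-Hochberg adjustment ran over these. Groups came from the sample labels. In groups of 1 library the spread was taken from the other groups. Total counts of 10139521 to 26307363 set the precision of low genes, and at 1 count per library no difference is readable. The exact counting interval covers counting error only.

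The fits were repeated with DESeq2 1.42.0, with RLE size factors, without the filter, with a log2 fold change beyond 1.5, without the experiment term, with only the compared libraries, each experiment alone, WT7 and WT34 in place of WT70, cell line as a replicate block, for day 5 all days of experiment 2 alone (added after seeing the data), each library left out, and limma 3.58.1 on log2(TPM + 1) or log2(TPM + 0.1) for genes with at least 1 TPM in 1 library or with no such filter. By the labels, the same cell lines recurred on different days. The difference between the 2 lines of a genotype was correlated between days of 1 experiment, or between day 3 of experiments 1 and 2. These correlations were 0.0176 to 0.0457 across the 21601 genes. The scripts were tested on simulated data.

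Named beside the 10 genes are, from each of 15 lists, up to 4 tested genes with the smallest p in the comparison described, every gene of lists of 4 or fewer, paralogs that could share reads, and the 8 genes outside the 10 with the highest correlation to their mean, of which 1 is not reported here. Other names, such as Nkx2-5, Myod1 or Nppa, were chosen after their values were seen. The members and lists were chosen with earlier results of these data known. Figures were drawn in Python 3.11.15 with matplotlib 3.10.9. Upstream windows and their sequences are from RefSeq on GRCm38.p6, the assembly of mm10, and gene positions from GENCODE on that build.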

Additional observations from a re-analysis of the deposited data

Results flagged for a closer look

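For 3 genes the KO and MUT effects on day 5 differed by a test of the difference itself (edgeR's quasi-likelihood test, Benjamini-Hochberg adjusted p, log2 scale), in each case with the larger rise in KO. The difference was 4.67 for Ttn (adjusted p = 0.00422), 3.21 for Myl4 (adjusted p = 0.00542) and 1.94 for Myh7 (adjusted p = 0.0218). For Myl4 the effects also had opposite signs, 2.21 in KO against WT and -0.99 in MUT against WT70, although the MUT effect did not pass by itself. For Myh7 both effects passed in the same direction, at 3.70 in KO and 1.76 in MUT. The KO and MUT effects were measured in separate experiments with separate wild-type lines, which cannot be told apart from the genotypes.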

How the results depend on the processing

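Of 100 values (10 genes in 10 comparisons), RLE size factors and the cell line as replicate block left all 100 on the same side of the threshold, DESeq2 left 99, no experiment term 97 and a log2 fold change beyond 1.5 left 96. The replicate block gave 9 of the 10 genes in KO against WT on day 5, as did the fit without it, and changed no other call of the 10. Limma on log2(TPM + 1) left 70 with the same call and sign, and on log2(TPM + 0.1) left 74. A further 8 and 7 values, in the same order, changed sign only, with no change of call. The 9 rises of day 5 held in every alternative run, leave-one-out included, except in a fit of experiment 2 alone, which was added after seeing the data and gave 7, without Tnnc1 and Actc1. The cause of the changes below was not tested, except that Ttn TPM depends on the assigned length.

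Counts of the 10 genes that moved by over 1.5 times were as follows. KO against WT on day 3 had 2, and 1 with limma on log2(TPM + 1), with or without its filter, and in experiment 2 alone. On day 4 it had 2, and 1 beyond 1.5 or without any 1 library (1 to 1). MUT against WT70 on day 3 had 0, and 1 (Actc1) with no filter on low counts or with only the compared libraries. On day 5 it had 3, and 5 with no filter, 7 with only the compared libraries, 1 without the experiment term, 0 with limma on log2(TPM + 1) with or without its filter, 1 on log2(TPM + 0.1), and 0 to 1 with a library left out. The KO effect minus the MUT effect had 3, and 5 on log2(TPM + 1) and 1 on log2(TPM + 0.1). KO on day 4 against day 3 had 8, and 4 on log2(TPM + 1), 4 without its filter and 5 on log2(TPM + 0.1). WT on day 5 against day 3 had 6, and 3 on log2(TPM + 1) with or without its filter.

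Among all genes, KO against WT had 856 calls on day 3, and 452 beyond 1.5, 255 on log2(TPM + 1), 237 without its filter and 530 on log2(TPM + 0.1). Day 4 had 1660, and 842 on log2(TPM + 1) and 706 without its filter. Day 5 had 2532, and 982 and 952 in these settings and 1458 in experiment 2 alone. MUT against WT70 on day 3 had 32, and 674 against WT7 and WT34, 218 with no filter on low counts, 300 with only the compared libraries, 21 without the experiment term, 56 with DESeq2, 49 on log2(TPM + 1), 58 without its filter, 51 on log2(TPM + 0.1) and 14 to 18 with a library left out. Day 5 had 405, and 1857 against WT7 and WT34, 738 with no filter on low counts, 824 with only the compared libraries, 236 without the experiment term, 183 on log2(TPM + 1), 184 without its filter, 207 on log2(TPM + 0.1) and 206 to 221 with a library left out. The KO effect minus the MUT effect had 782, and 499 beyond 1.5, 381 on log2(TPM + 1), 356 without its filter and 356 on log2(TPM + 0.1). KO on day 4 against day 3 had 2409, and 1528 beyond 1.5, 904 on log2(TPM + 1) and 854 without its filter. KO on day 5 against day 4 had 1560, and 1011, 698 and 606 in these settings. MUT on day 5 against day 3 had 3755, and 2477, 1576 and 1493. WT on day 5 against day 3 had 3344, and 2085, 1173 and 1094.

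Some values changed sign. Ttn in KO on day 4 against day 3 was -2.08, and 0.15 on log2(TPM + 1), 0.15 without its filter and 0.39 on log2(TPM + 0.1). Ttn in MUT on day 5 against day 3 was -2.61, and 0.021, 0.021 and 0.11 in the same order. Myom1 in KO against WT on day 5 was 1.39, and -0.081, -0.081 and -0.14. Nebl in KO against WT on day 5 was 1.02, and -0.0869 in experiment 2 alone. Against WT7 and WT34 in place of WT70, Wnt1 in MUT on day 5 was 0.57 (-1.33 against WT70) and Nr2f2 1.23 (-0.56 against WT70, which did not pass).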

Other observations

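Markers of other lineages passed between KO and WT on day 4. On day 4, 7 of 8 endoderm markers rose in KO against WT and none fell (median log2 fold change 3.52), among them Foxa1 (4.88), Foxa2 (3.61) and Sox17 (3.43), and their summed level was 460 to 479 CPM in KO, against 48.7 to 53.3 CPM in WT. Of 12 neural progenitor markers 7 fell and none rose (median -3.31), among them En1 (-7.76), Pax6 (-6.02), Sox1 (-5.31) and Sox2 (-4.31), at a summed 429 to 465 CPM in KO, against 873 to 885 CPM in WT. Of 9 smooth muscle markers 4 fell, and Kdr (2.53) was among 2 of 9 blood and endothelial markers that rose. Isl1 (5.34), Tbx20 (2.85), Myocd (2.27) and Gata6 (1.98) were among the 7 cardiac transcription factors that rose on day 4. Values are from edgeR's quasi-likelihood test.

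In MUT against WT70 on day 5, Foxa1 (3.50), Cpm (3.13) and Sox17 (2.40) rose among 8 endoderm markers, and Isl1 (4.12), Myocd (3.72) and Tbx20 (2.97) rose among 12 cardiac transcription factors. Nkx2-5, a cardiac homeodomain factor, had 115, 78 and 40 counts in the KO libraries of day 5, against 0, 2 and 0 in WT, and 5 and 8 counts in MUT, against 0 in WT70. The sarcomere lists outside the 10 genes had 0 calls in MUT on day 5 by edgeR. At an unadjusted p under 0.05, 2 thick filament, 2 thin filament, 2 Z-disc and costamere genes and 1 assembly factor were higher, and 1 thin filament and 1 Z-disc and costamere gene lower.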
